A study of Homo sapiens with 8 samples.

Results

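CTCF peaks at protein-coding promoters were taken from the peak list of untreated HT1080 cells, a human fibrosarcoma line labelled as ras +. A peak was a promoter peak if its centre lay within 1 kb of the start of a protein-coding gene record in hg19. This rule gave 3207 promoter peaks of 47470 control peaks, or 6.76%, and left 44263 other peaks. The nearest gene of a promoter peak was 1 of 3051 genes. All members entered the comparisons of fate, and 3206 of them, those on chromosomes 1 to 22 and X, entered the measures that need the sequence.

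The comparison was between HT1080 cells with no treatment named in the labels and HT1080 cells exposed to 3 µM CBL0137 for 6 h, each with 2 biological replicates of CTCF ChIP and 2 of input DNA, 8 libraries in all. Both conditions share the cell line and the anti-CTCF antibody. The authors called peaks with PePr once per condition from both replicates, and every fold enrichment of ChIP over input below is therefore their single value for a condition, with no spread between replicates. No test between the conditions could be made from such lists. The fold enrichments of the separate lists share no scale, so a control and a treated value printed together do not measure a change. Shares of peaks are given with Wilson 95% intervals, and differences between shares with Newcombe intervals, both of which cover counting error only, since peaks of the same libraries are not replicates. Read depth per library was not used here. The identity of the cells could not be checked against marker genes, since the lists hold no expression values.

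CTCF is a zinc finger protein that binds an asymmetric DNA motif and, with the cohesin ring, holds the bases of chromatin loops and the borders of topological domains. At promoters it can anchor contacts with distant enhancers and separate neighbouring regulatory regions. Many promoters lie in CpG islands, which are rich in G and C and hold more CpG dinucleotides than the rest of the genome. CBL0137 is a curaxin, a small molecule that binds DNA and disturbs the contacts between DNA and histones in nucleosomes. The question was which promoters kept a CTCF peak after exposure to it and which lost theirs. A control peak was counted as kept if it overlapped any peak of the treated list and as lost if it overlapped none.

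The matches to the CTCF core consensus below show what the strongest kept and lost promoter peaks contain. They are hg19 sequences of 30 bases, read 5′ to 3′ on the strand of the match, with the 12 bases aligned to the core consensus in capitals. The 4 kept peaks are the strongest with a match among the 10 kept peaks of highest control fold enrichment. Only 2 of the 10 strongest lost peaks had a match, PHLPP1 and GIMD1. The last 4 lie in kept peaks at sites listed as higher in treated cells and were added after the values were seen.
CLPB, kept, chr11:72145293-72145322, minus strand: gtggggcagCCACCGGGGGGCgccagggag
COMTD1, kept, chr10:76995862-76995891, minus strand: ccggcgcggCCACCAGATCGCgcccggctc
INTS15, kept, chr7:6629561-6629590, plus strand: ccgctcgcgCCGCCAGGGGGCgccctccgg
YTHDF2, kept, chr1:29063245-29063274, plus strand: tcctccaatCCGCCAGAGGGCgcagcggcc
PHLPP1, lost, chr18:60382226-60382255, minus strand: tcctggccgCCAGCAGCTGGCcgtggccag
GIMD1, lost, chr4:107290794-107290823, plus strand: aaagaatctCCCCCAGGTGGCagtagcagc
PRSS50, kept, higher in treated, chr3:46759368-46759397, minus strand: ggcatgcggCCAACAGGGGGCgccgtcgtg
DRD1, kept, higher in treated, chr5:174871829-174871858, minus strand: tcgcagccgCCGGCAGAGGGCgccccgggc
REPS1, kept, higher in treated, chr6:139309498-139309527, minus strand: gggcgccggCCACCAGGGGGCgctgcggcc
CXCL12, kept, higher in treated, chr10:44882170-44882199, minus strand: gaggcgccgCCACCAGAGGGCgccggagcc
The matches of REPS1 and CXCL12 had no mismatch to the consensus, and the other 8 had 1 each.

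A whole peak of each fate shows the surroundings of such a match. COIL encodes coilin, the structural protein of Cajal bodies, and PHLPP1 encodes a phosphatase that acts on the kinase Akt. These are the strongest kept and lost peaks of at most 300 bp that hold a match, and COIL was chosen after its values were seen. Both sequences are printed in the direction of the gene from hg19 (COIL at chr17:55038351-55038650, minus strand, and PHLPP1 at chr18:60382051-60382350, plus strand), with the bases of the match in capitals.
COIL, kept: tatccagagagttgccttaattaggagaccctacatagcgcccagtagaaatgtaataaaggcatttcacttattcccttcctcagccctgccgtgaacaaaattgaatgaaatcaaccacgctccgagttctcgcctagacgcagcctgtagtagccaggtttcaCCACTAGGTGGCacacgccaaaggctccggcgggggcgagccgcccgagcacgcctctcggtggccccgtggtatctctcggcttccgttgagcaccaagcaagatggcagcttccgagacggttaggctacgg
PHLPP1, lost: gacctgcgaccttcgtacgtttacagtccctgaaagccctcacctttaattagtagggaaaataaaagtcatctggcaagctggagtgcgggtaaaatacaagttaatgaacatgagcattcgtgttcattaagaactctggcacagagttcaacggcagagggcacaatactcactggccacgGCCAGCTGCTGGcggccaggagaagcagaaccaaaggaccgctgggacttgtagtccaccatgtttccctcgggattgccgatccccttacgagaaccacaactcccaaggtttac
The COIL peak had a control fold enrichment of 79.96 and a treated fold enrichment of 54.98, and its centre lay 89 bp upstream of the start. The PHLPP1 peak had a control fold enrichment of 71.3 and no counterpart in treated cells, and its centre lay 574 bp upstream. The 500 bp around the centre were 50.4% G and C at COIL and 55.2% at PHLPP1.

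Of the 3207 promoter peaks, 2308 were kept and 899 were lost. The lost share was 28.0% (95% interval 26.5 to 29.6), against 42.9% over all control peaks and 43.97% (43.5 to 44.4) over the other peaks. The difference between promoter and other peaks was -15.9 percentage points (-17.5 to -14.3). If a peak counted as kept only where the overlap exceeded 50% of the larger peak, 36.7% (35.1 to 38.4) of promoter peaks were lost, against 50.7% of all control peaks and 51.7% of other peaks. The lost share of promoter peaks lay below that of other peaks on 23 of 23 chromosomes, and the intervals did not overlap on 15 of them. Chromosome 19 had nearly equal shares, 20.7% of promoter peaks and 21.2% of other peaks. Among promoter peaks, chromosome 16 had the lowest lost share (20.1%) and chromosome 4 the highest (40.8%).

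The lost share fell with the strength of the peak in control cells. Lost means only missing from the called treated list, and whether weak peaks went missing with little change of their own was not tested. The median control fold enrichment was 30.8 for promoter peaks, with quartiles of 19.7 and 43.3, and 28.6 for other peaks. Kept promoter peaks had a median of 36.4 and lost ones of 18.3, and the median widths were 350 bp and 200 bp. Of all pairs of 1 kept and 1 lost promoter peak, the kept one was the stronger in control cells in a fraction of 0.836, and for other peaks this fraction was 0.81. Of the weakest of 10 equal groups of control peaks, 70.7% of promoter peaks and 89.6% of other peaks were lost, and of the strongest group 2.21% (12 of 542) and 8.30%. Promoter peaks were lost less often than other peaks in each of the 10 groups of equal control fold enrichment, and the difference averaged over these groups was -13.1 percentage points.

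**Figure D1:**
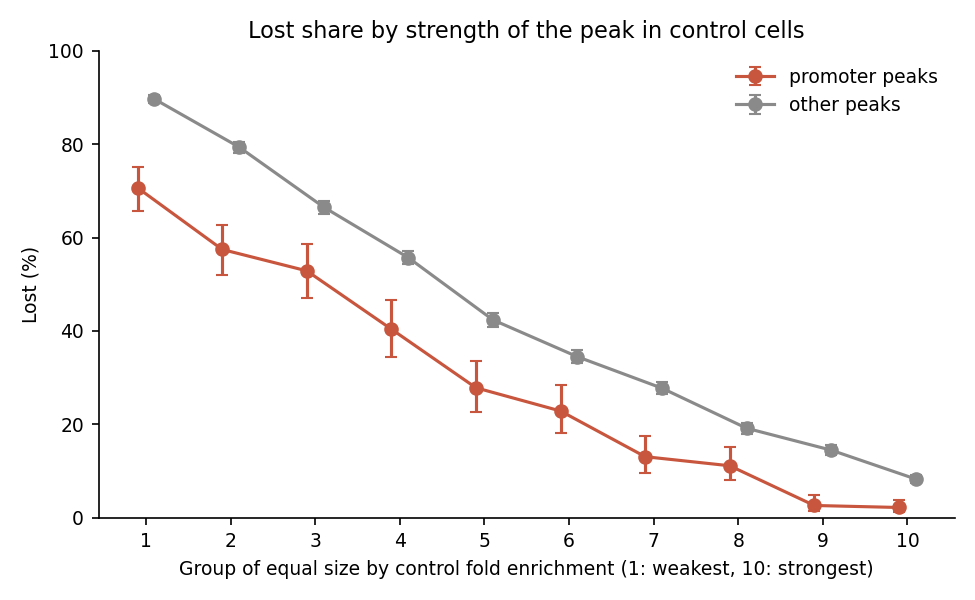
Lost share (%, y axis) of promoter and other CTCF peaks in 10 groups of equal size by control fold enrichment (x axis, weakest to strongest); bars are Wilson 95% intervals. Both shares fell from group to group, from 70.7% to 2.21% for promoter peaks, which lay below the other peaks in all 10 groups.

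The GC content of the surroundings moved with fate as well, and at equal GC content the lost share of promoter peaks was, on average, not below that of other peaks. GC content over the 500 bp around the centre had a median of 62.4% at promoter peaks and 44.8% at other peaks, and the observed over expected frequency of CpG had medians of 0.743 and 0.216. Lost promoter peaks had a median GC content of 57.0% and kept ones of 64.6%. Promoter peaks in surroundings under 40% GC were lost in 58.4% of cases (52 of 89), and those at 70% or more in 13.8% (105 of 761). Between 50% and 60% GC the lost share was 37.2% (34.0 to 40.6) for promoter peaks and 31.2% (30.3 to 32.1) for other peaks, and between 60% and 70% GC 22.3% (19.9 to 24.8) and 16.5% (15.2 to 17.8). Averaged within 10 groups of equal GC content, the difference between promoter and other peaks was 3.57 percentage points, opposite in sign to the unadjusted difference. Within groups equal in both control fold enrichment and GC content it was -1.02. The top GC group was broad, from 61% to 95.5%, and held 1746 promoter and 3001 other peaks. At 70% GC or more there were 761 promoter and 487 other peaks, so GC content was not fully equal within that group. The part of base composition in the difference was not tested.

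**Figure D2:**
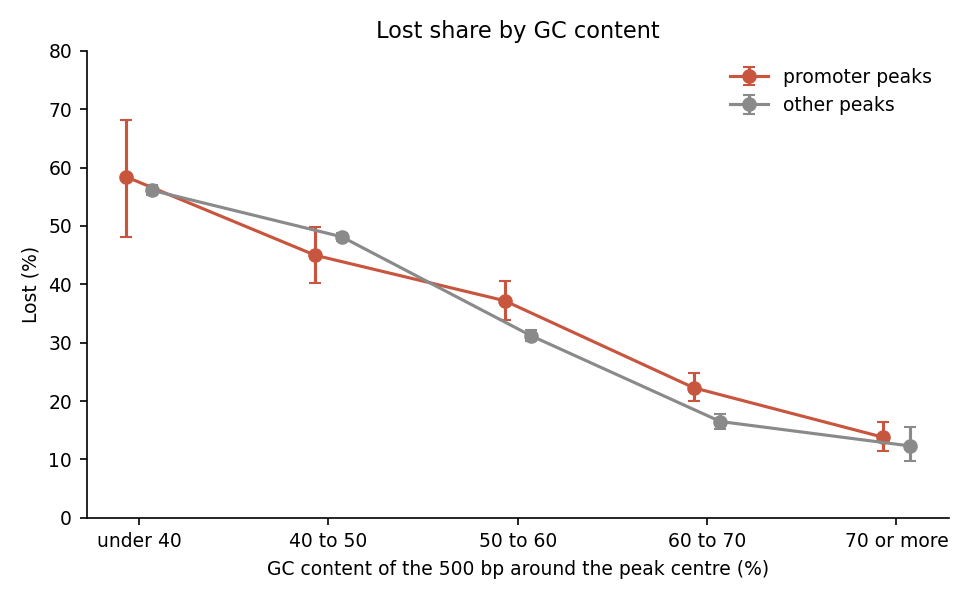
Lost share (%, y axis) of promoter and other CTCF peaks by GC content of the 500 bp around the centre (%, x axis); bars are Wilson 95% intervals. From 50% to 70% GC promoter peaks lay above other peaks (37.2% against 31.2%, and 22.3% against 16.5%), and below 50% and at 70% or more the intervals overlapped.

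Promoter peaks gathered just upstream of the start. Upstream centres made up 56.8% (1823), and 36.9% of peaks (1183) contained the start itself. The 200 bp before the start held 911 peaks, more than any other 200 bp bin, and the 200 bp after it held 443. The centres of 1562 peaks (48.7%) lay within 250 bp of the start, and the median signed distance, negative upstream, was -47 bp. Kept peaks had a median signed distance of -58 bp and lost peaks of -1 bp.

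The lost share was lowest in the bin just before the start. There 185 of 911 peaks were lost, or 20.3% (17.8 to 23.04), and the median control fold enrichment was 38.2, the highest of the 10 bins. The highest lost share was 40.8% (60 of 147, 33.2 to 48.9), from 800 to 600 bp upstream. Peaks within 250 bp of the start were lost in 23.9% of cases (21.9 to 26.1) and peaks farther away in 31.9% (29.7 to 34.2), a difference of -7.97 percentage points (-11.05 to -4.87). This difference was -1.22 within 10 groups of equal control fold enrichment and -3.41 within groups of equal GC content. Peaks that contained the start were lost in 17.2% of cases and peaks beside it in 34.4%, and the wider a peak, the more readily it contains a start. Upstream peaks were lost less often than downstream peaks, 24.7% against 32.4%, with a difference of -7.68 percentage points (-10.8 to -4.53). The median control fold enrichment ran from 26.9 to 38.2 in the upstream bins and from 23.7 to 28.5 in the downstream bins. The difference between the sides was not computed at equal strength or GC content.

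**Figure D3:**
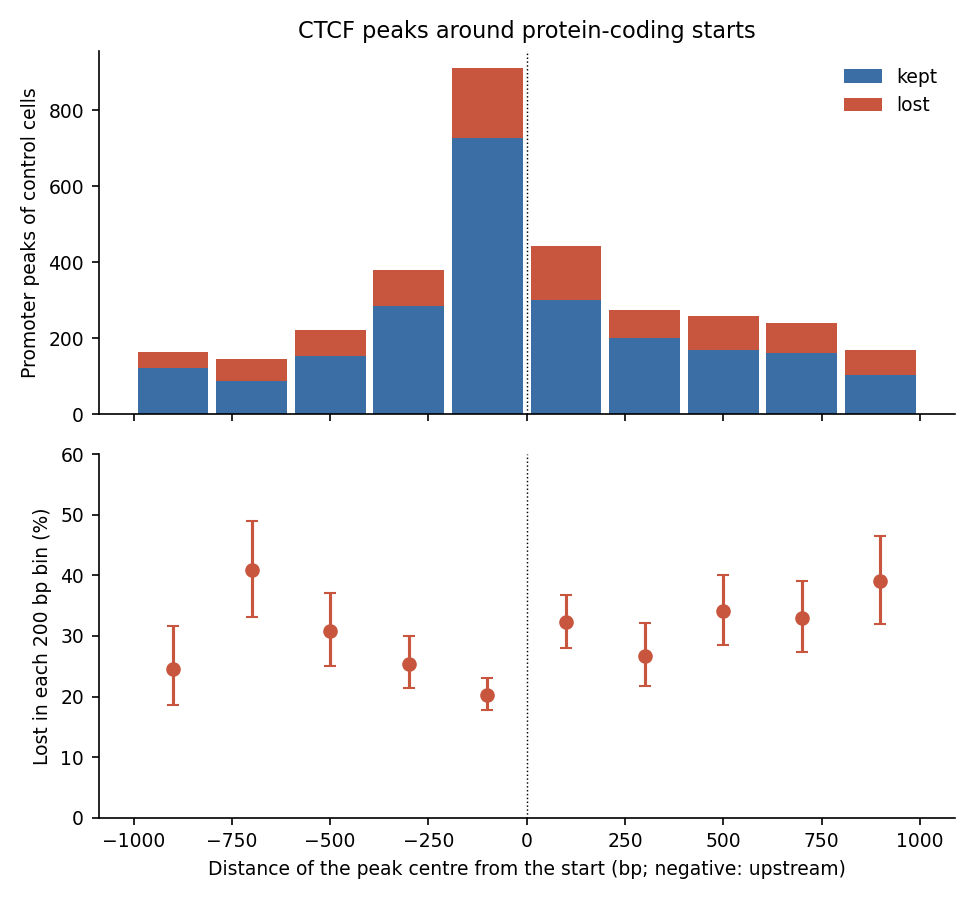
Number of promoter peaks kept and lost (upper y axis) and lost share (%, lower y axis, with Wilson 95% intervals) in bins of 200 bp by distance of the peak centre from the nearest protein-coding start (bp, x axis, negative upstream). The bin just upstream of the start held 911 peaks and had the lowest lost share, 20.3%.

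Centres downstream of the start, or on its base at 3 peaks, lay in an intron at 746 peaks, in an untranslated exon at 475 and in a coding exon at 163. The lost shares were 31.4% (28.1 to 34.8) in introns, 35.8% (31.6 to 40.2) in untranslated exons and 27.6% (21.3 to 34.9) in coding exons, so that these 3 intervals overlapped. Starts on both strands within 1 kb were found at 263 peaks, 8.20% of the members, of which 28.9% were lost against 28.0% of peaks at starts of one strand only. The difference was 0.94 percentage points (-4.46 to 6.91), an interval that allows either sign. The rule's limit of 1 kb did not mark a sharp step, since 32.4% of the 148 peaks from 900 to 1000 bp were lost and 39.3% of the 150 peaks from 1000 to 1100 bp, with overlapping intervals. Farther away the lost share was 36.7% from 1 to 2 kb, 39.6% from 10 to 50 kb and 52.9% beyond 100 kb of the nearest start.

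The core consensus of CTCF, 12 bases with at most 1 mismatch on either strand, was found in 34.1% (32.5 to 35.8) of the 400 bp windows around promoter peaks. It was found in 50.1% of windows around other peaks, and 10 kb away in 3.24% and 2.78%. The windows 10 kb away were not matched for GC content, so they do not give the rate of matches in sequence like that of promoters. Kept promoter peaks held a match in 40.4% of cases and lost ones in 17.9%, a difference of 22.5 percentage points (19.2 to 25.6). This difference was 17.2 within groups of equal control fold enrichment and 5.95 for matches with no mismatch, which 7.85% of kept and 1.89% of lost promoter peaks held. With a match, 14.7% (161 of 1093) of promoter peaks were lost, and without one 34.9% (738 of 2113). The order was the same in each of 4 GC ranges. Below 50% GC, 25.4% of promoter peaks with a match were lost and 59.1% of those without, and at 70% GC or more 3.46% (8 of 231) and 18.3% (97 of 530). Of other peaks, 28.2% with a match and 59.8% without one were lost.

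The motif is asymmetric, so that a match points in the direction of the gene or against it. It pointed with the gene in 622 of 1093 promoter peaks, 56.9% (54.0 to 59.8). Upstream of starts of one strand only the share was 63.4% (419 of 661, 59.6 to 67.0), and downstream of them 44.7% (159 of 356, 39.6 to 49.9). Of the 10 matches of 30 bases printed above, those of PHLPP1 and GIMD1, both lost, pointed against the gene and the other 8, all kept, pointed with it. Peaks with a match in the direction of the gene were lost in 12.9% of cases (10.5 to 15.7) and those with a match against it in 17.2% (14.1 to 20.9), intervals that overlap.

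The 10 strongest kept promoter peaks included those of BPTF, CLPB, COMTD1, DNAJC11, PINK1, INTS15, YTHDF2, PAFAH2 and SH3GL1, with control fold enrichments from 119.7 at BPTF down to 83.8 at SH3GL1. BPTF encodes the largest subunit of the chromatin remodeller NURF. Its peak, chr17:65821401-65821650, was centred 94 bp upstream of the start and had a fold enrichment of 119.7 in control and 47.7 in treated cells, which put it at percentile 100 of the control list and at percentile 86.0 of the shorter treated list. DNAJC11, which encodes a mitochondrial chaperone partner, stayed at the top, with 89.8 in control and 96.4 in treated cells, above percentile 99.9 in both lists. PINK1 encodes the kinase that marks damaged mitochondria, and its peak at chr1:20959651-20960050 kept the same borders, with 89.1 in control and 63.5 in treated cells. CLPB, a mitochondrial disaggregase, had its peak in the coding exon 399 bp downstream of the start, with 99.3 in control and 59.1 in treated cells. Of these 10, 7 centres lay upstream of the start, and INTS15, an Integrator subunit, was the only one at a site of the direct comparison, where it was listed as higher in treated cells.

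The 10 strongest lost promoter peaks included those of PHLPP1, LGI4, DEF6, GIMD1, DYSF, RBBP5, INHBA, CILK1 and EPRS1, with control fold enrichments from 71.3 down to 49.8. All 10 lay at sites that the authors' direct comparison lists as higher in control cells, against 64.1% of all lost promoter peaks and 51.2% of all control peaks. They had been picked as strong in control cells and missing from the treated list, and the direct comparison rests on the same libraries. LGI4 encodes a secreted protein of myelinating glia, and its peak at chr19:35632301-35632500, in an intron 955 bp downstream of the start, had a control fold enrichment of 59.6. DYSF encodes dysferlin, which reseals muscle membranes, and its peak lay 841 bp upstream with a control fold enrichment of 58.2. RBBP5 encodes a subunit of histone methyltransferase complexes, and its peak lay 332 bp upstream with a control fold enrichment of 56.8. INHBA encodes a subunit of activin, and its peak, chr7:41744701-41745100, lay in an untranslated exon 532 bp downstream with a control fold enrichment of 54.6. Centres lay within 250 bp of the start at 3 of these 10 genes (DEF6, CILK1 and EPRS1) and at 8 of the 10 strongest kept ones, against 48.7% of all promoter peaks. The kept set was stronger in control cells than the lost set. At equal control fold enrichment, the lost share of near peaks minus that of farther ones was -1.22 percentage points. The 10 lost peaks were above percentile 91 of the control list, and each was missing from the treated list.

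At the other end, 5 kept promoter peaks had the lowest control fold enrichment, those of RAE1, PRR20G, PPM1J, PRPSAP1 and HIPK1. Only at RAE1 did the overlap with the treated peak exceed 50% of the larger peak, so the others count as lost under that rule. RAE1, which acts in the export of mRNA, had 6.88 in control and 7.82 in treated cells over the same 150 bp. PRR20G had 7.01 in control and 25.7 in treated cells, and PPM1J, which encodes a protein phosphatase, had 7.38 and 21.2, and both lay at sites listed as higher in treated cells. A peak low in the control list could thus be well inside the treated list, at percentile 44.8 for PRR20G and 33.2 for PPM1J. The treated peaks were wider than the control peaks, 300 bp against 100 bp at PRR20G and 450 bp against 150 bp at PPM1J. Their fold enrichments therefore cover unlike stretches.

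The authors also compared the conditions directly, which gave sites listed as higher in control or in treated cells, and only their positions were used. It rests on the same libraries as the peak lists and is no independent evidence. A site listed as higher in control cells lay at 1058 promoter peaks, or 33.0%, against 51.2% of all control peaks and 52.5% of other peaks. One listed as higher in treated cells lay at 203, or 6.33%, against 2.41% of all control peaks and 2.13% of other peaks. Of the 899 lost promoter peaks, 576 lay at a site higher in control cells, 64.1% (60.9 to 67.1), and 79.1% of lost other peaks did. The remaining 323 lost promoter peaks were missing from the treated list without a listed difference at the site. Of the 24697 sites higher in control cells 4.39% were centred at a promoter, and of the 2164 sites higher in treated cells 20.2% (18.6 to 21.9).

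Kept promoter peaks differed in how they stood in the treated list. Of the kept promoter peaks, 47.5% became narrower, 27.5% became wider and the other 577 kept their width, and of kept other peaks 63.8% became narrower and 13.9% wider. Because the fold enrichments of separate lists share no scale, each peak was placed by its percentile within its own list. These percentiles are over 47470 peaks in control and 29558 in treated cells, and since most of the peaks missing from the treated list were weak, a kept peak is placed lower there with no change of its own. The median change was -3.24 for promoter peaks and -9.96 for other peaks. Ranked among the kept peaks alone, so that both ranks cover the same peaks, the median changes were 4.05 and 0.36, and 57.5% (55.4 to 59.5) of promoter peaks and 50.6% (50.02 to 51.3) of other peaks stood higher in treated cells. The 482 kept promoter peaks at sites higher in control cells had a median change of -28.7, and the 203 at sites higher in treated cells had one of 24.1, or -15.6 and 36.7 among the kept peaks alone. The peak of ATM, the kinase that signals DNA breaks, had the lowest change of all kept promoter peaks, -95.3, at a site listed as higher in control cells. It stood at percentile 99.1 (fold enrichment 68.5) in control and at percentile 3.74 (fold enrichment 9.54) in treated cells, and it counted as kept under the rule of any overlap. The start of NPAT lies within 1 kb of the same peak.

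**Figure D4:**
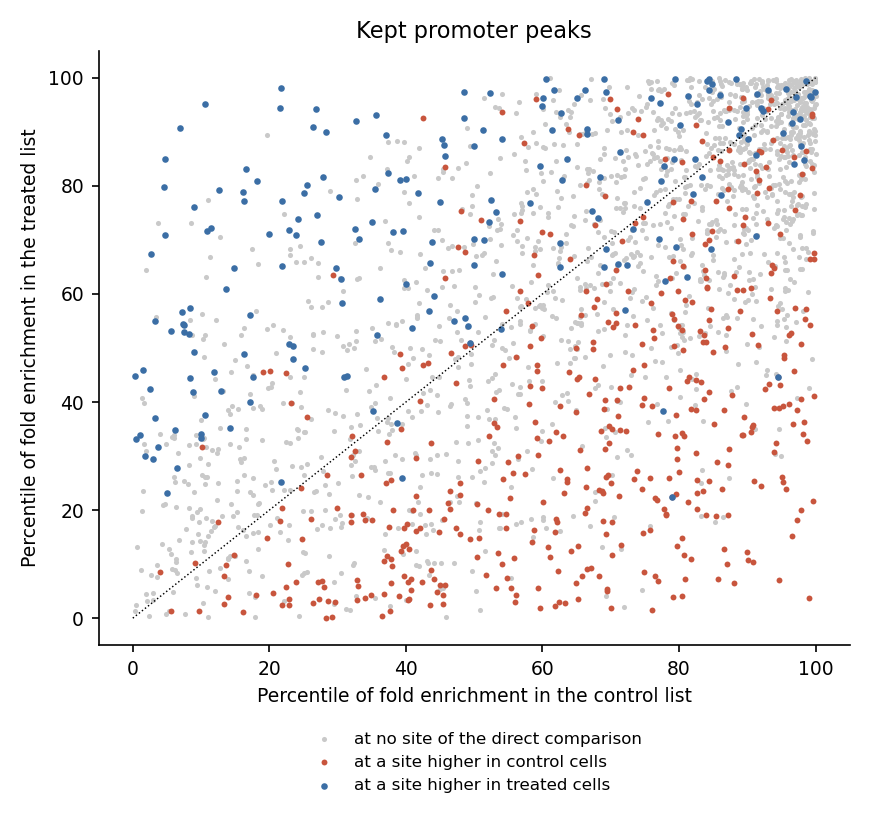
Percentile of fold enrichment in the treated list (y axis) against that in the control list (x axis) for the 2308 kept promoter peaks, coloured by overlap with sites of the direct comparison; 3 peaks that overlapped sites of both directions are drawn as higher in treated cells, and the dotted line marks equal percentiles. Most of the peaks missing from the treated list were weak, which by itself places kept peaks lower there. Peaks at sites higher in control cells had a median change of -28.7, and those at sites higher in treated cells of 24.1.

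Of the promoter peaks at sites higher in treated cells, those with the highest treated fold enrichment belonged to PRSS50, DRD1, REPS1, KDM2A and CXCL12. All 5 centres lay upstream of the start, and all 5 peaks stood above percentile 99 of the treated list. CXCL12 encodes a chemokine that draws leukocytes and stem cells, and its peak at chr10:44882051-44882350 stood at percentile 60.6 (fold enrichment 32.4) in control and 99.7 (82.9) in treated cells with the same borders. KDM2A encodes a histone demethylase that binds CpG islands, and its peak stood at percentile 69.0 and 99.7. DRD1 encodes a dopamine receptor, and its peak stood at percentile 84.4 and 99.8. The surroundings of these 5 peaks were between 61.4% (REPS1) and 76.0% (KDM2A) G and C.

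Peaks without a control counterpart also arose at promoters. The treated list held 29558 peaks, of which 2762 (9.34%) were centred at a protein-coding promoter. Of these, 456 overlapped no control peak, 16.5% (15.2 to 17.9), against 8.07% of all treated peaks and 7.20% of treated peaks elsewhere. They were weak beside the shared ones, with median treated fold enrichments of 18.0 and 34.0. A site listed as higher in treated cells underlay 47.6% of the arisen promoter peaks and 39.2% of those that arose elsewhere.

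Counted by gene, 3381 of 20175 protein-coding genes (16.8%) had a control peak centred within 1 kb of the start. A peak within 1 kb of several starts counts at each of their genes, so intervals by gene, here and in the lists, count some peaks repeatedly. Of the 3381 genes, 2400 kept all their peaks, 904 lost all of them, 26.7% (25.3 to 28.3), and 77 had peaks of both fates. Most of these genes (3201) had 1 peak, 176 had 2 and 4 had 3. A start could thus lose one peak and keep its neighbour. TRIB2, which encodes a pseudokinase, had 3 peaks: those centred 739 bp downstream (control fold enrichment 39.7) and 186 bp upstream (28.3) were lost, and one 786 bp upstream (26.4) was kept. At XPR1, which encodes a phosphate exporter, the stronger peak was the lost one, with 33.7 at 183 bp upstream against 20.3 at 642 bp downstream. At TTC33 the lost and kept peaks had nearly equal control fold enrichments, 30.7 and 29.4. SDF2L1 and PPP5C each lost the weaker peak, which had 32.4 and 30.7. The fates of neighbours were not always far apart. The kept peaks of TTC33 and SDF2L1 also lay at sites listed as higher in control cells, and narrowed from 300 bp to 200 bp and 150 bp. At SDF2L1 the overlap was 50% of the larger peak, so the peak counts as lost where more than 50% is asked. The lost peaks of PPP5C and of TRIB2 at 186 bp upstream lay at no listed site.

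Gene lists were set against these genes by the same count, where the lost share over all genes with a peak was 26.7% and the median of their strongest control fold enrichment 31.3. Gene families were taken by symbol. The lists of architectural proteins and FACT, MYC network, cell cycle, DNA repair, p53 pathway and matrix genes were chosen by name and do not cover all such genes. Genes for cytosolic ribosomal proteins, which include paralogs with such symbols, had a peak in 26 of 91 cases, and 22 kept all of them, 3 lost them (RPL11, RPS28 and RPL15) and RPSA had both. Their median of 38.0 was above that of all genes with a peak, and RPL38 (55.1) and RPLP0 (53.9), components of the large ribosomal subunit, had strong kept peaks. Of 20 genes for mitochondrial ribosomal proteins with a peak 16 kept it, such as MRPL38 (72.5), and 4 lost it, such as MRPL1 (37.1), with a median of 34.5. Of 17 genes of RNA polymerases and the Mediator complex with a peak 16 kept it, with a median of 45.8. MED20, MED23 and MED4, Mediator subunits, had kept peaks of 69.98, 68.8 and 63.1, and MED17 lost one of 18.8. Of 12 proteasome genes 10 kept their peaks, among them PSMD6 (52.5) and PSMD11 (47.5), PSMB4 lost a weak one (13.01) and PSMD3 had both, with a median of 31.7. The intervals of the lost shares ran from 4.003% to 28.98% for cytosolic and from 8.07% to 41.6% for mitochondrial ribosomal proteins. For RNA polymerases and Mediator the interval was 1.05% to 26.98%, and for the proteasome 1.49% to 35.4%. All of these intervals held the 26.7% over all genes with a peak.

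Lists without a lost peak were short. All 8 HOX genes with a peak, of 39, kept it, among them HOXC10 (68.9), HOXA6 (55.2) and HOXC5 (45.1), which code for factors that pattern the body axis. All 6 collagen genes with a peak, of 44, kept it, and COL1A1, the main fibrillar collagen of connective tissue, had 58.9 in control and 61.6 in treated cells at an intronic peak 843 bp downstream. Of the architectural proteins of chromatin and the histone chaperone FACT, 6 genes had a peak and kept it, none of them a FACT gene, with a median of 49.8. STAG2 and STAG1, cohesin subunits, had 70.4 in control and 64.2 in treated cells and 56.6 and 43.4, and PDS5A and PDS5B, which regulate cohesin, had 52.0 and 47.7 in control cells. CTCF itself, named after its values were seen, kept an intronic peak 355 bp downstream of its start with 37.4 in control and 32.3 in treated cells, at a site listed as higher in control cells. The medians were 37.4 for HOX genes and 33.3 for collagens, against 31.3 over all genes with a peak. The intervals of these lost shares reached 32.4% for 8 genes and 39.0% for 6, so that the share over all genes lay within them.

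**Figure D5:**
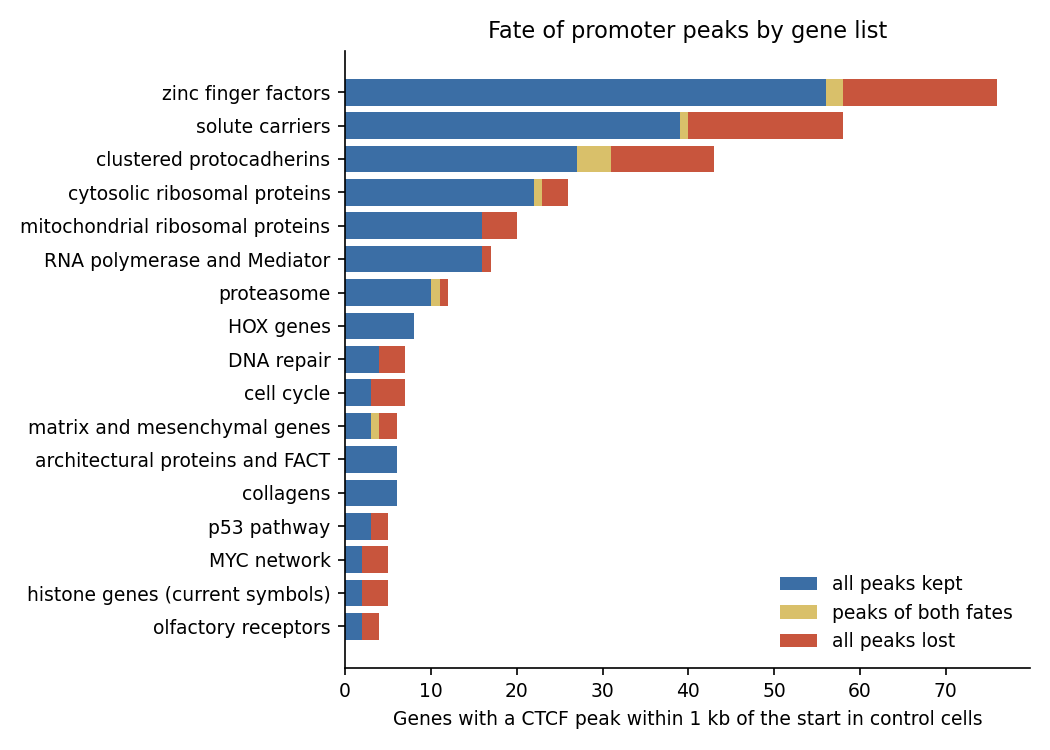
Number of genes with a CTCF peak centred within 1 kb of the start in control cells (x axis) by gene list (y axis), divided by the fate of their peaks. Zinc finger factors had the most genes with a peak (76), and HOX genes, collagens and architectural proteins had none that lost it.

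Other lists had more lost peaks by count, again from few genes, with intervals that all held the 26.7% over all genes with a peak. Of 5 MYC network genes with a peak, MYC, MYCN and MAX lost it and MYCL and MYCBP2 kept it, or 3 of 5, with an interval of the lost share from 23.1% to 88.2%. The control fold enrichment was 18.5 at MYC, 820 bp downstream of the start, 22.5 at MYCN, 697 bp upstream, and 25.7 at MAX, 812 bp upstream. All 3 lay at sites listed as higher in control cells, as did 64.1% of all lost promoter peaks. Their control fold enrichments were below the median of all genes with a peak. MYCL, another MYC family gene, had 28.2 in control (percentile 48.4) and 54.9 in treated cells (percentile 92.5), at a site listed as higher in treated cells. The cell cycle list named 36 genes, of which 7 had a peak and 4 lost it, with an interval from 25.04% to 84.2%. Lost were those of CCND1 (32.0), CDKN2C (20.2), MCM3 (18.1) and PLK1 (16.2), and CDC25B (53.5), CDK4 (42.1) and CCNE2 (14.7) kept theirs. Genes not on this list, such as CDC7 (24.3, kept) and CDC20 (26.2, lost), were not counted. CCND1 encodes cyclin D1, which drives entry into the cycle, and its peak was only 100 bp wide. Of 5 genes with a peak among the 69 with current symbols of replication-dependent histones and linker histones, 3 lost it (H2AC25 and H2BC26, which share 1 peak, and H4C3), and H2AC21 and the linker histone gene H1-10 kept it. HIST1H4B, an H4 gene under an older symbol that the list did not take in, kept a peak of 42.3, and with older symbols 3 of 6 lost it, with an interval from 18.8% to 81.2%. The medians of the strongest control fold enrichment were 22.5 for the MYC network, 20.2 for cell cycle genes and 20.7 for histone genes (23.7 with older symbols), against 31.3 over all genes with a peak.

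The DNA repair list named 36 genes, of which 7 had a peak, and both fates were found. Genes not on this list, such as POLQ (25.9, kept) and EXO1 (27.8, lost), were not counted. ATM (68.5), PARP1 (65.6), ERCC1 (63.4) and ERCC4 (44.6) kept theirs, and LIG3 (35.5), CHEK2 (11.1) and TP53BP1 (10.96) lost theirs. PARP1, which senses DNA breaks, had 65.6 in control and 76.8 in treated cells at a site listed as higher in treated cells, the opposite of ATM. In the p53 pathway, 3 of 5 genes with a peak kept it, among them the ubiquitin ligase gene MDM2 (35.8 in control, 34.4 in treated cells) and SFN (31.8), and TIGAR (31.5) and PHLDA3 (18.0) lost theirs. Of 6 genes of the matrix other than collagens and of mesenchymal cells 3 kept their peaks (among them ELN, for elastin, and VIM, for the intermediate filament protein vimentin), 2 lost them (MMP14 and LAMC1) and THBS1 had both. The medians were 44.6 for DNA repair genes, 31.8 for the p53 pathway and 22.5 for these matrix and mesenchymal genes.

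The large families were closer to the share over all genes. Zinc finger factors had a peak in 76 of 544 cases and 18 lost it, 23.7% (15.5 to 34.4). The strongest kept were at ZNF25 (73.1) and ZNF354A (66.1), and the strongest lost at ZNF282 (41.8) and ZSCAN31 (35.4). Solute carriers had a peak in 58 of 374 cases and 18 lost it, 31.0% (20.6 to 43.8), with SLC47A2 (65.0) the strongest kept and SLC25A15 (32.2) the strongest lost. The clustered protocadherins, whose promoters are bound by CTCF to choose which isoform a neuron expresses, had a peak at 43 of 53 genes, or 81.1%, against 16.8% of all genes. Of these, 27 kept their peaks, 12 lost them and 4 had both, 27.9% lost (16.7 to 42.7). PCDHGA1 lost the strongest (41.0), and PCDHB9 kept 37.8 in control and 38.3 in treated cells. The genes of this family resemble each other, and the authors removed reads with more than 1 alignment, so that peaks in stretches shared between genes could be missed. Olfactory receptor genes had a peak in 4 of 415 cases, and 2 of them lost it. The medians were 31.2 for zinc finger factors, 26.9 for solute carriers, 24.5 for protocadherins and 31.3 for olfactory receptors.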

How the data were processed

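CTCF ChIP and input libraries of control and CBL0137-treated HT1080 cells (2 replicates each) were the source of 4 deposited lists. The authors mapped reads to hg19 with Bowtie2 2.2.3 and removed multiply aligned and duplicate reads with SAMtools 1.5, the versions given in the submitters' processing notes. With PePr they made 1 peak list per condition from both replicates. The deposited values of a peak are its ratio of ChIP to input (fold enrichment), its p-value and its FDR, all computed by the authors. Column headings were absent and the order was read as broadPeak. Of the lists of the direct comparison only coordinates were used, and their fold, p and FDR columns were left out. The labels name paired-end sequencing, the methods single-end reads.

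Here, starts were the outermost starts of protein-coding gene records (GENCODE v44lift37 on GRCh37, which has the coordinates of hg19). Coordinates are printed counting from 1. GC content and CpG frequency were taken over 500 bp, and the CTCF consensus was searched over 400 bp. Percentiles are ranks of the fold enrichment within a list. Differences at equal strength or GC content were computed within 10 groups each and averaged, weighted by the peaks of the first class named. Named are the 10 strongest kept and lost peaks, the 5 weakest kept, the 5 strongest in treated cells at sites higher there, 5 genes with peaks of both fates, and up to 4 genes per list and fate with the strongest peaks. Some items that this rule names are not reported here. Members, lists and rules were chosen with earlier results of these data known. Python 3.11.15, pandas 2.3.3 and pysam 0.24.0 were used, and the routines were tested on simulated data. Other windows, starts, overlap rules, thresholds and groupings were tried.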

Additional observations from a re-analysis of the deposited data

How the results depend on the processing

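No paired analysis was possible because each list pools the replicates of a condition, so that leaving out replicate 1 or replicate 2 and a replicate block were not run. The number of promoter peaks stayed within 1.5 times the main count, between 2256 and 4646, under all 5 alternatives tried. The lost share of promoter peaks was 36.7% where the overlap had to exceed 50% of the larger peak, 25.4% within 500 bp of the start, 30.5% within 2 kb, 30.05% with the starts of all transcripts, and 11.6% when the control list was shortened to its strongest peaks, as many as the treated list holds. The difference between promoter and other peaks under the last 4 of these was -18.3, -13.7, -14.2 and -13.9 percentage points. It was -13.1 at equal control fold enrichment and -1.02 at equal fold enrichment and GC content. After the data were seen, 2 comparisons were added to this result. At equal GC content alone the sign turned, to 3.57, and against other peaks from 1 to 10 kb of a start the difference was -8.17 (-10.0 to -6.27). The upstream share was 62.8% within 500 bp, 54.4% within 2 kb, 61.0% with the starts of all transcripts and 63.9% for peaks with an FDR of at most 1e-05. The difference between peaks near the start and farther away was -1.22 at equal control fold enrichment and, also added after the data were seen, -3.41 at equal GC content. The difference between kept and lost promoter peaks in consensus matches was 5.95 without a mismatch and 17.2 at equal control fold enrichment. The share of lost promoter peaks at a site higher in control cells stayed within its interval under all 4 alternatives tried. Ranking kept promoter peaks among the kept peaks alone, added after the data were seen, turned their median change from -3.24 to 4.05. The causes of these changes were not tested. The pooled lists give no error between replicates for any of these values.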
